A study of Homo sapiens with 11 samples.

Results

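MX1, MX2, SAMD9, SAMD9L, PARP9, DTX3L, CMPK2, RSAD2, BST2 and XAF1 are interferon-stimulated genes whose products act against viruses inside the infected cell. They were chosen by name, and all 10 were found among the 58699 genes of the deposited table. The study used HCT116 cells, a long-established line from a human colon carcinoma, transfected with siLuc, a control siRNA whose target luciferase is absent from human cells, or with siStau1, aimed at Staufen1. Staufen1 is a protein that binds double-stranded RNA. Sequencing of total RNA covered 4 groups with 2 libraries each: siLuc with the solvent DMSO, siLuc with the DNA methylation inhibitor decitabine (DAC), siStau1 with DMSO and siStau1 with DAC. Decitabine was given at 500 nM for 5 days. No group is without siRNA, and every group is of this cell line alone. The labels do not say whether the libraries of a group came from separate cultures.

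Interferons released by a cell bind receptors on it and its neighbours, and the kinases JAK1 and TYK2 then activate transcription factors, among them STAT2. With IRF9, STAT2 is part of a complex that binds a short sequence, the interferon-stimulated response element, in the promoters of genes such as these 10. MX1 and MX2 are dynamin-like GTPases that block viruses early in infection, MX1 in the cytoplasm and MX2 at the nuclear pore. SAMD9 and SAMD9L restrict poxviruses. PARP9, an ADP-ribosyltransferase family member, and DTX3L, a ubiquitin ligase, work as a complex. CMPK2 is a nucleotide kinase of mitochondria, and RSAD2 (viperin) converts the nucleotide CTP into a product that stops viral RNA chains. BST2 (tetherin) holds budding virus particles at the cell surface, and XAF1 is a binding partner of the apoptosis inhibitor XIAP that promotes cell death.

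In the genome 8 of the 10 genes lie in 4 neighbouring pairs (GENCODE release 29, GRCh38). MX2 (ENSG00000183486.12, chromosome 21, 41361943 to 41409390) and MX1 (ENSG00000157601.13, chromosome 21, 41420304 to 41459214) lie 10.9 kb apart on the same strand. SAMD9 (ENSG00000205413.7, chromosome 7, 93099513 to 93118023) and SAMD9L (ENSG00000177409.11, chromosome 7, 93130055 to 93148369) lie 12.0 kb apart on the same strand. PARP9 (ENSG00000138496.16, chromosome 3, 122527924 to 122564577) and DTX3L (ENSG00000163840.9, chromosome 3, 122564238 to 122575203) point away from each other and overlap by 340 bases. CMPK2 (ENSG00000134326.11, chromosome 2, 6840570 to 6866635) and RSAD2 (ENSG00000134321.11, chromosome 2, 6865806 to 6898239) do the same with an overlap of 830 bases. BST2 (ENSG00000130303.12) lies on chromosome 19, from 17402939 to 17405648, and XAF1 (ENSG00000132530.16) on chromosome 17, from 6755447 to 6775647. The 2 overlapping pairs each share one locus in the deposited table. The library kit was stranded, but whether strand was used in the counting is not given in the sources used here, so the split of reads in the overlaps is uncertain. The coding sequences of MX1 and MX2 are 64.9% identical over a global alignment, with a longest identical run of 68 bases. Those of SAMD9 and SAMD9L are 70.6% identical, with a longest run of 32 bases. How reads that fit both were shared is not given either.

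The following stretches are shown because these genes are grouped by their response to interferon. Promoter windows from RefSeq (GRCh38.p14, 250 bases before to 50 after a start) were at hand for 9 of the 10 genes, MX2 being the exception, as 16 windows. They were searched on both strands for GAAANNGAA, the core of the interferon-stimulated response element. The main search was for this core with a further A at its end in the 250 bases before the start, which held it in 5 genes (MX1, SAMD9, PARP9, RSAD2 and BST2), against 3.71% of all 27305 genes with a window. Over the whole window it was present in 6 genes, against 4.38% of all genes, and the core alone in 7, against 9.86%. A longer form of the element, of 13 letters, was present before the start of 0 members and of 0.0952% of all genes. Matches on the 2 strands and matches that share bases were both counted. Each stretch of 30 bases reads 5′ to 3′ along the named gene, and capitals mark the core or, on the other strand, its complement.
MX1, chr21:41420562-41420591, plus strand, from 12 bases after a start: cagaaatGAAACCGAAACTGAAttgtccgg
BST2, chr19:17405738-17405767, minus strand, 116 bases before a start: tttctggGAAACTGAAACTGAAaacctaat
SAMD9, chr7:93118096-93118125, minus strand, 128 bases before a start: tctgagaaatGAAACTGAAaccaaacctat
PARP9, chr3:122564321-122564350, minus strand, 32 bases before a start: ggcgcaaagtTTCAGTTTCgcttccctgga
RSAD2, chr2:6865796-6865825, plus strand, 71 bases before a start: agcgggaaacGAAAGCGAAgcgttgcgggg
RSAD2, chr2:6877623-6877652, plus strand, 136 bases before a start: tgtttcaactTTCAGTTTCacatgtggaaa
The MX1 and BST2 stretches each hold a pair of overlapping cores. The PARP9 core is also the core of the DTX3L window, where it lies across the start, and the RSAD2 core nearer to its start is also that of CMPK2, where it lies 6 bases after a start. A second MX1 window held the core 187 bases before its start. The windows of SAMD9L and XAF1 held no such letters. A match is a description of the sequence, and which start these cells used was not measured.

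CpG dinucleotides, the sites at which decitabine lowers methylation, differed widely between these windows. In the 250 bases before the start, all 35116 windows in RefSeq had a median of 11 CpGs, with quartiles of 3 and 23. The window of SAMD9L had 0, that of BST2 had 2 and that of SAMD9 had 3. The 2 XAF1 windows had 3 and 5. The windows of the overlapping pairs reached 36 CpGs for RSAD2, 34 for CMPK2, 26 for PARP9 and 14 for DTX3L. Further windows of these pairs had 4 for RSAD2, 33 and 2 for CMPK2 and 4 for PARP9. The 3 MX1 windows had 4, 15 and 25. Methylation was not analysed here.

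The deposited table gives 1 FPKM value (fragments per kilobase of transcript per fixed number of mapped fragments) per group and none per library, so there is no standard deviation or test over libraries here, and read depth is not known. A gene is called where its q-value in the authors' deposited table is below 0.05, and log2 ratios computed here add a pseudocount of 0.1 to both FPKM values, which understates the change of low genes. STAU1, the targeted gene, had 35.5 FPKM with DMSO and 33.7 with DAC in siLuc cells, and 29.98 and 27.1 in siStau1 cells, and the authors' deposited table called neither knockdown difference (q-values 0.767 and 0.685). Knockdown here names only the comparison of the groups labelled siStau1 with those labelled siLuc, and a direction given for siStau1 is that of the groups labelled so. Of 7 epithelial markers of the colon 6 had at least 1 FPKM in every group, LGALS4 being the exception, and their sum was 2149 to 8199 FPKM. All 5 leukocyte markers and all 3 endothelial markers were below 1 FPKM in every group, with sums of 0.284 to 1.88 and 0.0666 to 1.57 FPKM. The 4 fibroblast markers summed to 1.74 FPKM with DMSO and 10.3 with DAC in siLuc cells, and 1.201 and 6.38 in siStau1 cells, of which COL1A1 was the only one to reach 1 FPKM. The sums of all 4 marker lists were higher with DAC under either siRNA, and their part in the results was not tested. The epithelial sum was mostly KRT8, KRT18 and KRT19, while EPCAM was lower with DAC, at 117 against 259 FPKM in siLuc and 179 against 338 in siStau1 cells. In bulk RNA, fewer expressing cells and less RNA per cell cannot be told apart.

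The 10 genes were highest in siLuc DAC in 8 cases and lowest in siStau1 DMSO in 8 cases. The exceptions were SAMD9 and PARP9, both highest in siLuc DMSO and lowest in siLuc DAC. The median of the 10 levels was 9.49 FPKM with DMSO and 23.3 with DAC in siLuc cells, and 1.94 and 22.0 in siStau1 cells. BST2 had the highest level of the 10 in siLuc DMSO, PARP9 in siStau1 DMSO, and MX1 in both DAC groups. SAMD9L was the lowest in 3 groups, and XAF1 in siStau1 DMSO.

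**Figure D1:**
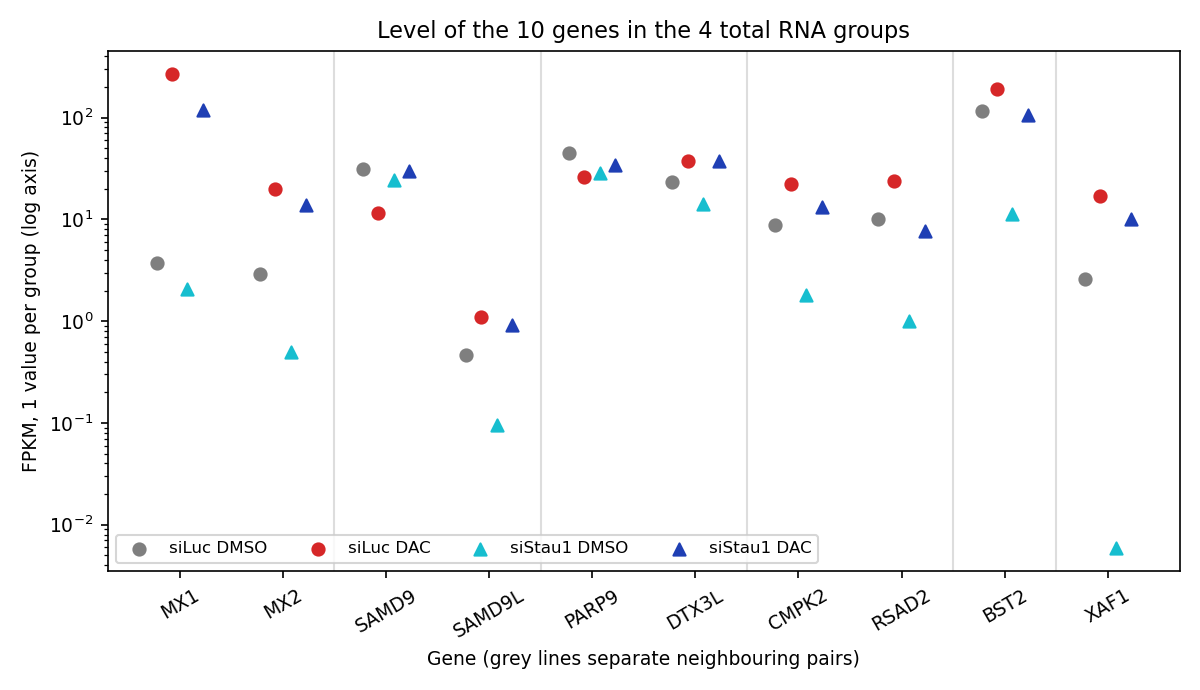
FPKM of each of the 10 genes (log axis) in the 4 total RNA groups, 1 point per group, with circles for siLuc and triangles for siStau1. MX1 lies at 265.5 and 117.9 FPKM in the DAC groups and at 3.74 and 2.08 in the DMSO groups, while SAMD9 and PARP9 have their lowest point in siLuc DAC.

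MX1 had 3.74 FPKM with DMSO and 265.5 with DAC in siLuc cells, and 2.08 and 117.9 in siStau1 cells. Both DAC groups stood far above both DMSO groups. Its paralog MX2 had 2.93, 19.8, 0.498 and 13.9 FPKM in the same order, with the same split between drug and solvent but a smaller distance. DAC raised MX1 71.0-fold in siLuc and 56.7-fold in siStau1, and MX2 6.75-fold and 27.998-fold. All of these were called with the lowest q-value that the authors' deposited table holds, 0.00162. In siStau1 with DMSO, MX2 was 5.89-fold lower than in siLuc (q-value 0.0221), while MX1 was 1.799-fold lower without a call (q-value 0.579). With DAC, MX1 was 2.25-fold lower in siStau1 than in siLuc (q-value 0.00525), and MX2 1.42-fold lower without a call (q-value 0.678). Adjusted within its own comparison, neither knockdown call passed, at 0.226 for MX2 with DMSO and 0.144 for MX1 with DAC. Whether the knockdown differences differed between DMSO and DAC was not tested.

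SAMD9 had 31.0 FPKM with DMSO and 11.4 with DAC in siLuc cells, and 24.4 and 30.03 in siStau1 cells. A single group, siLuc DAC, stood apart, and it was the low one. SAMD9L was low, at 0.465, 1.10, 0.0964 and 0.919 FPKM in the same order. SAMD9 fell 2.71-fold with DAC in siLuc and was 2.63-fold higher in siStau1 DAC than in siLuc DAC, both with q = 0.00293 in the authors' deposited table. Adjusted within its own comparison, the second of these did not pass, at 0.0909. It had no call for DAC in siStau1 (q-value 0.715) or for knockdown in DMSO (q-value 0.655). SAMD9L rose 9.54-fold with DAC in siStau1 (q-value 0.0326), from a level under 0.1 FPKM. The log2 ratio of this rise was 2.38 with a pseudocount of 0.1 and 0.81 with 1. Its 2.38-fold higher level with DAC in siLuc was not called (q-value 0.310), and the knockdown in DMSO was not tested by the authors.

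SAMD9 has the lowest GC content of the 10 transcripts, at 36.0%, and the median log2 ratio of protein-coding genes that reached 1 FPKM in both groups compared moved with GC content. Protein-coding genes in the same GC bin (1 of 20) had a median log2 ratio of −0.95 for DAC in siLuc and 0.61 for knockdown in DAC, against −1.43 and 1.39 for SAMD9. Relative to its bin SAMD9 was at −0.48 and 0.77, with 25.4% and 95.3% of the genes of the bin below it. Both values were smaller than before centring and kept their sign. In the 2 comparisons without a call centring enlarged the log2 ratio. For DAC in siStau1 it went from 0.30 to 1.02, with 95.1% of the genes of the bin below it. For knockdown in DMSO it went from −0.34 to −0.76, with 5.66% below it. The part of GC content in the calls was not tested.

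PARP9 had 44.6 FPKM with DMSO and 25.9 with DAC in siLuc cells, and 28.5 and 33.9 in siStau1 cells. No group was called apart from another in the comparisons used here. DTX3L, which shares the promoter region with PARP9, had 23.2, 37.4, 14.2 and 37.3 FPKM in the same order, with both DAC groups above both DMSO groups. The authors' deposited table called PARP9 in no comparison used here. It called DTX3L for DAC in siStau1, a 2.63-fold rise (q-value 0.0308), and not for DAC in siLuc, where the log2 ratio was 0.68 (q-value 0.385). With DMSO, siStau1 was 1.56-fold below siLuc for PARP9 and 1.64-fold below for DTX3L, neither called. With DAC, DTX3L was at nearly the same level under both siRNAs, and the sign of its log2 ratio changed with the scaling.

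CMPK2 had 8.84 FPKM with DMSO and 22.5 with DAC in siLuc cells, and 1.802 and 13.2 in siStau1 cells. RSAD2, its partner on the other strand, had 10.1, 24.1, 1.00 and 7.75 FPKM in the same order, so that both had their lowest value in siStau1 DMSO and their highest in siLuc DAC. CMPK2 was 4.91-fold lower in siStau1 than in siLuc with DMSO (q-value 0.00415), and RSAD2 10.1-fold lower (q-value 0.0393), both called in the authors' deposited table. Adjusted within this comparison alone, neither passed, at 0.0681 for CMPK2 and 0.387 for RSAD2. DAC raised CMPK2 7.32-fold in siStau1 (q-value 0.00162), while the 7.73-fold difference of RSAD2 there was not called (q-value 0.0707). In siLuc the differences with DAC were 2.54-fold for CMPK2 (q-value 0.0995) and 2.38-fold for RSAD2 (q-value 0.348), without a call. Of the 10 genes RSAD2 had the lowest log2 ratio for knockdown in DAC, at −1.62, with a q-value of 0.0671.

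BST2 had 115.8 FPKM with DMSO and 189.0 with DAC in siLuc cells, and 11.3 and 105.4 in siStau1 cells. The level in siStau1 DMSO stood apart from the other 3 groups. BST2 was 10.2-fold lower in siStau1 than in siLuc with DMSO, and DAC raised it 9.29-fold in siStau1, both with q = 0.00162 in the authors' deposited table. In siLuc its log2 ratio with DAC was 0.71 (q-value 0.226). Its transcript has the highest GC content of the 10, 57.3%, and the median of its GC bin was 0.76, so that relative to the bin its log2 ratio was −0.06.

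XAF1 had 2.57 FPKM with DMSO and 16.9 with DAC in siLuc cells, and 0.00595 and 10.1 in siStau1 cells. Its level was near 0 in siStau1 DMSO and above 2 FPKM in the other groups. DAC raised it 6.60-fold in siLuc (q-value 0.00162 in the authors' deposited table). The rise from 0.00595 to 10.1 FPKM in siStau1 and the lower level of siStau1 in DMSO were tested there but not called (q-value 0.551 for both). Since the level in siStau1 DMSO is so close to 0, the log2 ratio for DAC in siStau1 follows the pseudocount: it was 6.59 with 0.1, 9.31 with 0.01 and 3.47 with 1.

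**Figure D2:**
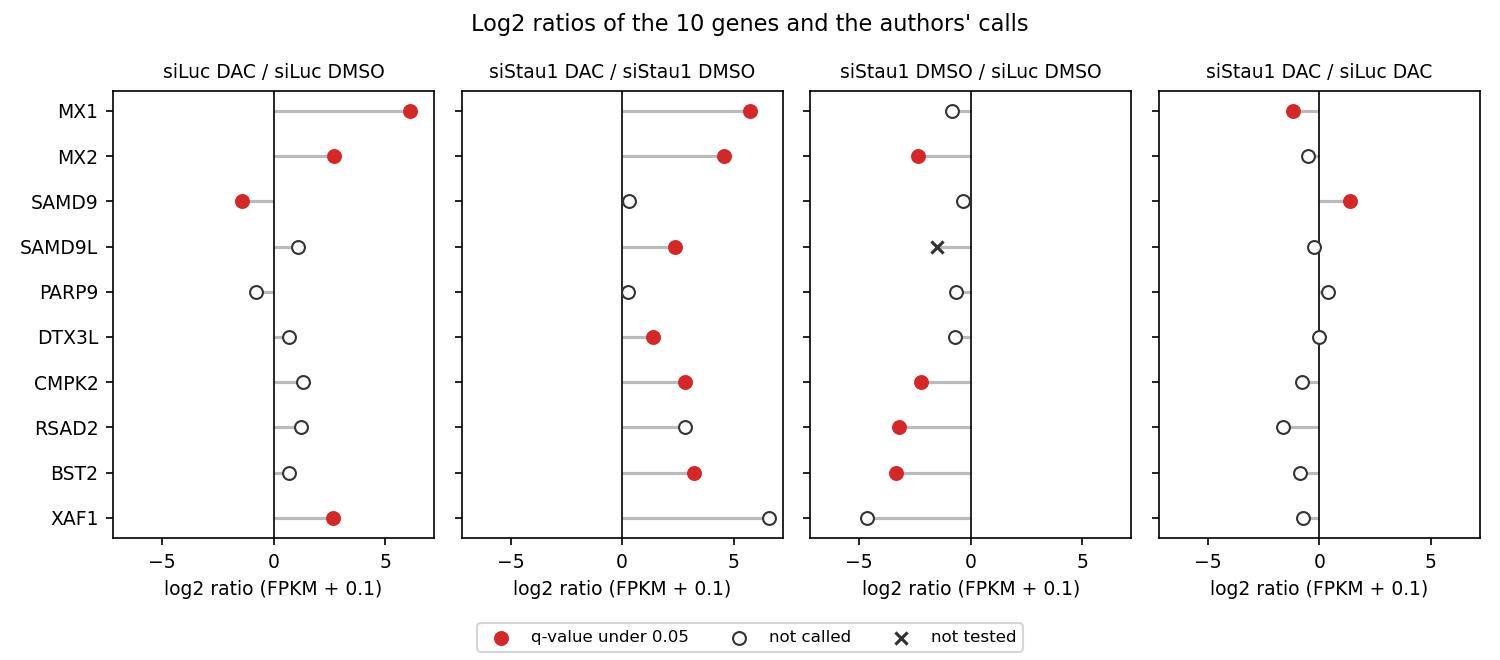
Log2 ratios of FPKM (pseudocount 0.1) of the 10 genes in 4 comparisons of groups, with filled red points for a q-value under 0.05 in the authors' deposited table, open points for no call and a cross for a gene not tested. For DAC in siStau1 all 10 points lie right of 0 and for knockdown in DMSO all 10 lie left of it.

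Counted over the 10 genes, DAC in siLuc raised 3 (MX1, MX2 and XAF1) and lowered 1 (SAMD9) in the authors' deposited table, while 8.71% of all 17504 genes tested were called higher and 4.78% lower. The median log2 ratio of the 10 was 1.17, against 0.23 over all genes tested. In siStau1 DAC raised 6 (MX1, MX2, SAMD9L, DTX3L, CMPK2 and BST2) and lowered 0, with 4.56% and 2.89% of all 16979 genes tested called higher and lower. There the median was 2.82, against 0.11 over all genes tested. At an unadjusted p under 0.05 in Cuffdiff's test, 0 members were lower there too, against 8.63% of all genes tested. The DAC comparisons in siLuc and siStau1 share no libraries.

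For knockdown in DMSO the authors' deposited table called 4 of the 9 genes tested lower (MX2, CMPK2, RSAD2 and BST2) and 0 higher, against 0.466% and 0.333% of all 15893 genes tested. At an unadjusted p under 0.05 in Cuffdiff's test the counts were the same, 4 and 0, against 2.095% of all genes tested lower and 2.21% higher. The median log2 ratio of the 10 was −1.88, against −0.02 over all genes tested. For knockdown in DAC it called 1 lower (MX1) and 1 higher (SAMD9), against 0.469% and 0.434% of all 17263 genes tested, and the median was −0.62, against −0.14. This count is not firm: adjusted within this comparison alone, neither gene passed, at adjusted values of 0.144 for MX1 and 0.0909 for SAMD9. At an unadjusted p under 0.05, 3 members were lower (MX1, RSAD2 and BST2) and 1 was higher, against 3.85% and 3.09% of all genes tested. The count for knockdown in DMSO fell to 1 gene, BST2, under the same change. The knockdown and DAC comparisons share groups, so their values stand side by side here and are not set against each other as results.

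Set against siLuc DMSO, the group with neither treatment, siStau1 DAC had 3 genes called higher (MX1, MX2 and XAF1) and 0 lower in the authors' deposited table, against 4.02% and 0.964% of all 16909 genes tested, and an unadjusted p under 0.05 in Cuffdiff's test gave the same 3 and 0, against 8.79% and 4.84%. MX1 was 31.5-fold higher (q-value 0.00162), MX2 4.75-fold (q-value 0.00525) and XAF1 3.94-fold (q-value 0.0272). The other 7 genes had log2 ratios from −0.40 for PARP9 to 0.85 for SAMD9L, without a call. Among them BST2 was at 105.4 FPKM against 115.8, and SAMD9 at 30.03 against 31.0.

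The log2 ratio for DAC in siStau1 exceeded that in siLuc in 9 of the 10 genes, MX1 being the exception with a difference of −0.35. The median difference over the 10 was 1.53, against −0.02 over the 15956 genes tested in both arms. The 9 positive differences ran from 0.70 for DTX3L to 3.92 for XAF1, which had 0.00595 FPKM in siStau1 DMSO. By arithmetic the difference is also the log2 ratio for knockdown in DAC minus that in DMSO. A positive value is therefore no sign of a higher level in siStau1 DAC than in siLuc DAC. For knockdown in DAC 8 of the 10 genes had a negative log2 ratio. This difference was not tested.

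The balance within pairs shifted in different ways. The ratio of MX1 to MX2 was 1.28 with DMSO and 13.4 with DAC in siLuc cells, and 4.18 and 8.46 in siStau1 cells. MX1 was closest to MX2 in siLuc DMSO. The ratio of SAMD9 to SAMD9L was 66.7, 10.4, 253 and 32.7 in the same order. It was lower in each DAC group than in the DMSO group of the same siRNA. No pseudocount was added to these ratios. SAMD9L was at 0.465 FPKM in siLuc DMSO and 0.0964 in siStau1 DMSO, so the ratios there rest on a very low level. PARP9 stood above DTX3L with DMSO, at ratios of 1.92 in siLuc and 2.01 in siStau1 cells, and below it with DAC, at 0.693 and 0.908. For CMPK2 and RSAD2 the ratio went with the siRNA instead: it was 0.873 and 0.935 in siLuc and 1.798 and 1.70 in siStau1. None of these ratios has a replicate or a test.

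**Figure D3:**
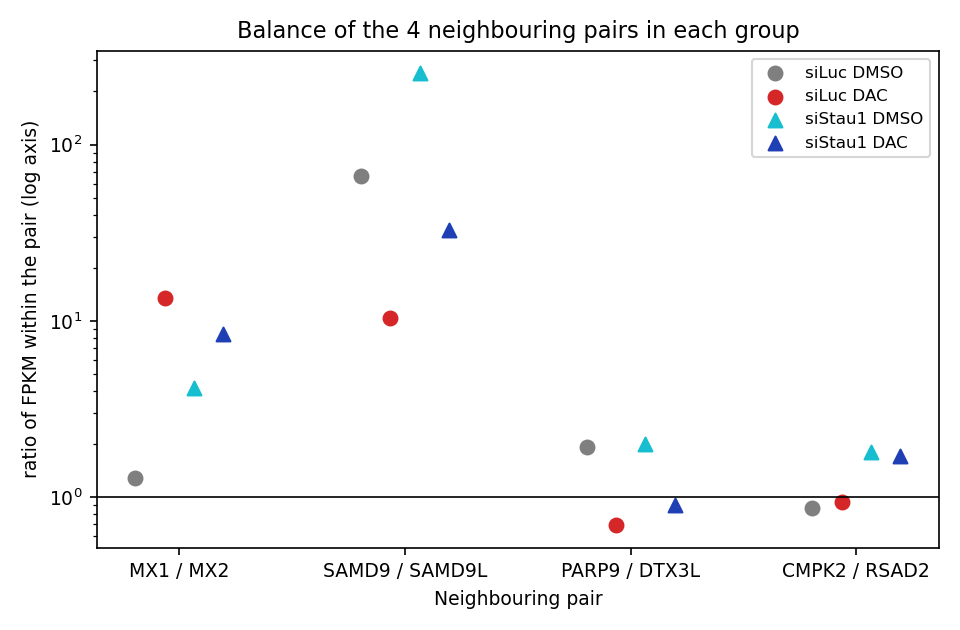
Ratio of FPKM within each neighbouring pair (log axis) in the 4 groups, with circles for siLuc and triangles for siStau1. PARP9 over DTX3L lies above 1 in both DMSO groups and below 1 in both DAC groups, and CMPK2 over RSAD2 lies below 1 in both siLuc groups and above 1 in both siStau1 groups.

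GC content moved with the comparisons for the other members as well. PARP9, at 43.4% GC, had a log2 ratio of −0.78 for DAC in siLuc in a bin with a median of −0.44. XAF1, RSAD2 and SAMD9L have a GC content between 38.5% and 43.0%, in bins whose median for DAC in siLuc was negative, and their ratios relative to the bin were larger, at 3.18, 1.83 and 1.72. For MX1 the value relative to the bin was 5.80. With GC centring the medians of the 10 genes kept their sign in all 5 comparisons.

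**Figure D4:**
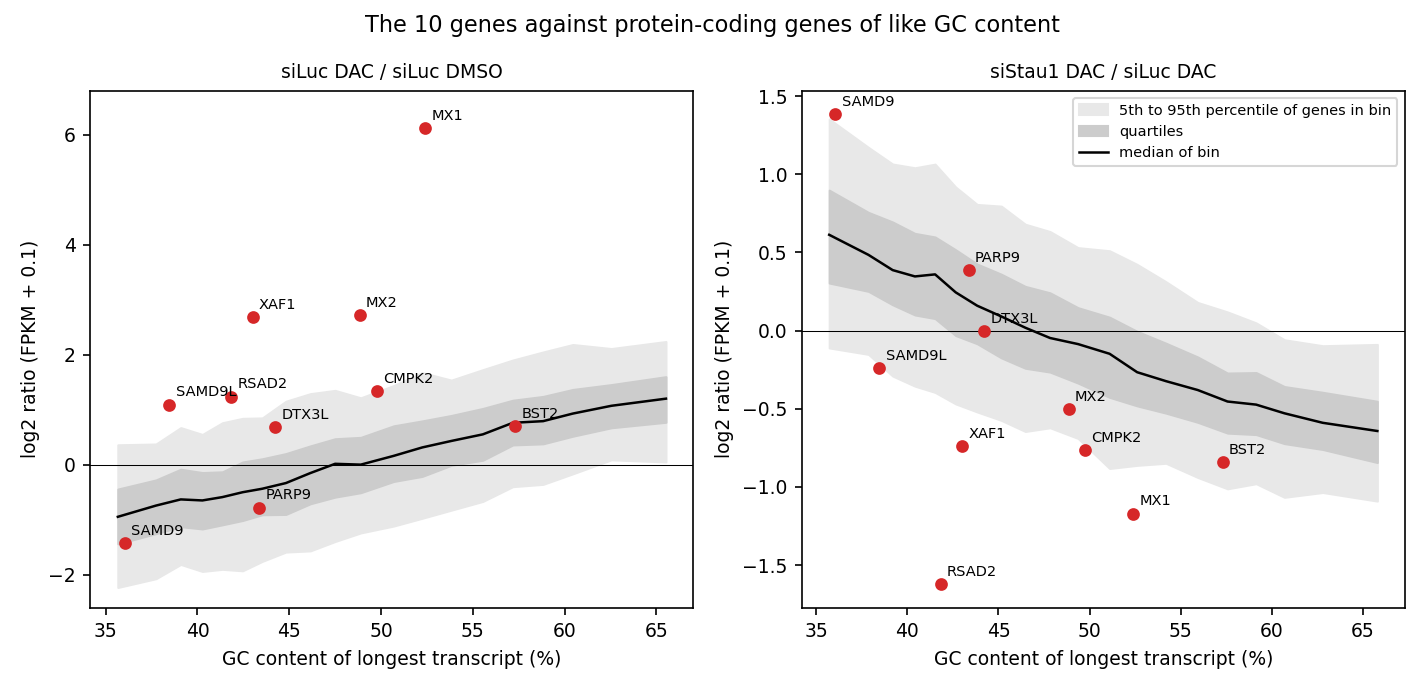
Log2 ratio (pseudocount 0.1) against the GC content of the longest transcript for DAC in siLuc (left) and knockdown in DAC (right), with the 10 genes in red and, for protein-coding genes of at least 1 FPKM in both groups, the median (line), quartiles and 5th to 95th percentiles (shading) of 20 GC bins. SAMD9 lies at the low end of GC content, at −1.43 on the left and 1.39 on the right, and BST2 lies on the line on the left.

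Of 32 other genes within 100 kb by RefSeq positions, 16 were tested by the authors for DAC in siLuc, and 0 were called in the authors' deposited table, with 2 at an unadjusted p under 0.05 in Cuffdiff's test. Of all genes tested for DAC in siLuc, 8.71% were called higher and 4.78% lower, with 17.6% and 11.3% at that unadjusted p. For DAC in siStau1 17 were tested and 1 was called higher, against 4.56% of all genes tested higher and 2.89% lower. At an unadjusted p under 0.05 in Cuffdiff's test, 2 were higher and 1 lower there, against 10.4% and 8.63%. For knockdown in DMSO 15 were tested and 1 was called lower, against 0.466% of all genes tested. The tested neighbours had a median log2 ratio with DAC of 0.80 in siLuc and 0.39 in siStau1 cells, and of −0.28 for knockdown in DMSO, against 0.23, 0.11 and −0.02 over all genes tested. Both calls were of BISPR, a long non-coding RNA that starts next to BST2 on the other strand. BISPR had 2.996 FPKM with DMSO and 11.4 with DAC in siLuc cells, and 0.423 and 4.82 in siStau1 cells. It rose with DAC in siStau1 by a log2 ratio of 3.23 (q-value 0.00732). With DMSO it was lower in the group labelled siStau1 than in siLuc, at −2.57 (q-value 0.0279). Adjusted within its own comparison the call with DMSO would not pass, since MX2, with a lower deposited q-value (0.0221), did not (0.226). The annotated spans of BISPR and BST2 do not overlap and lie 0.056 kb apart.

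**Figure D5:**
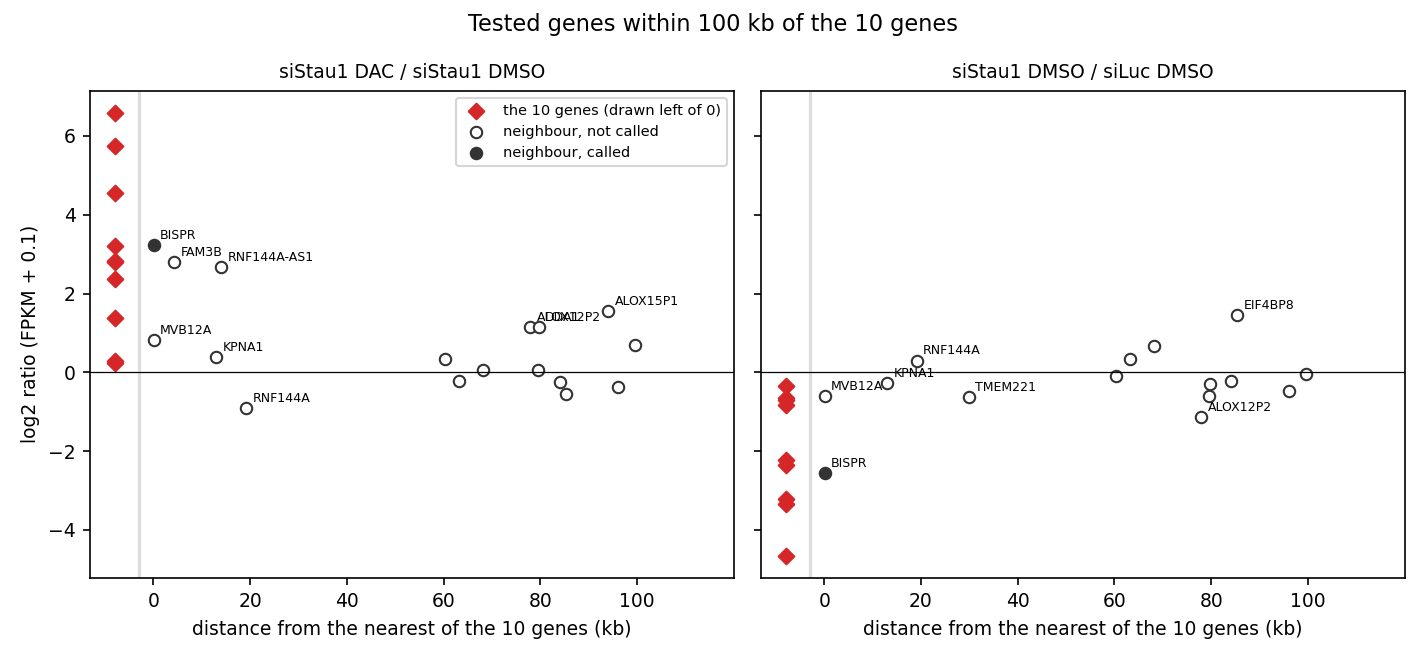
Log2 ratio (pseudocount 0.1) against distance from the nearest of the 10 genes, in kb, for the genes within 100 kb that the authors tested, for DAC in siStau1 (left) and knockdown in DMSO (right); red diamonds left of the grey line are the tested members of the 10 genes (SAMD9L was not tested on the right). BISPR, at 3.23 and −2.57, is the only filled (called) neighbour in either panel.

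The next list held 13 genes that carry the interferon signal from receptor to nucleus or dampen it, all tested. With DAC in siLuc the authors' deposited table called STAT2 and IRF7 higher, against 8.71% of all genes tested. With DAC in siStau1 it called STAT2, IRF7 and USP18 higher, against 4.56% of all genes tested. In both comparisons 0 of the 13 were called lower, against 4.78% and 2.89%. IRF7, a transcription factor that amplifies interferon genes, had 11.8 FPKM with DMSO and 78.5 with DAC in siLuc cells, and 6.11 and 32.9 in siStau1 cells. It was called in 4 of the comparisons used here, including knockdown in DAC, where it was lower (q-value 0.00825). Adjusted within that comparison this call would not pass, since MX1, with a lower deposited q-value (0.00525), did not (0.144). Relative to genes of like GC content the log2 ratio of IRF7 went from 2.72 to 1.52 for DAC in siLuc. For knockdown in DAC it went from −1.25 to −0.61. USP18, which removes ISG15 from proteins and dampens receptor signalling, had 28.3, 48.4, 6.78 and 31.4 FPKM in that order and with DMSO was lower in the group labelled siStau1 than in siLuc (q-value 0.00162). STAT2 had 22.6, 52.8, 13.3 and 32.2 FPKM, with both DAC groups above both DMSO groups. The receptor chains, JAK1, TYK2, IRF9, IRF1 and SOCS1 were called in no comparison used here.

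Relatives of the members showed a mixed picture. Of 26 dynamin-like, PARP, Deltex, nucleotide kinase and apoptosis inhibitor genes, 9 were called higher and 2 lower with DAC in siLuc in the authors' deposited table, where 8.71% and 4.78% of all genes tested were. The 9 were DNM2, GBP1, GBP2, GBP4, PARP10, PARP12, ZC3HAV1, DTX1 and DTX3, and the 2 were PARP1 and CMPK1. In siLuc cells GBP4 and DTX1 were listed at 0 with DMSO and stayed below 1 FPKM with DAC, at 0.633 and 0.864. Relative to genes of like GC content the log2 ratio of DNM2 went from 1.12 to 0.19 and that of PARP10 from 2.03 to 0.83. That of CMPK1 went from −1.32 to −0.58, and those of PARP12, DTX1 and DTX3 also became smaller. Centring enlarged those of ZC3HAV1 (1.16 to 1.60), GBP1 (1.95 to 2.45), GBP2 (3.41 to 3.75) and GBP4 (2.87 to 3.46). PARP1 stayed at −0.91. PARP12, an antiviral ADP-ribosyltransferase, had 35.8 FPKM with DMSO and 94.1 with DAC in siLuc cells, and 21.3 and 63.0 in siStau1 cells. ZC3HAV1, which binds CpG-rich viral RNA, had 48.4, 108.3, 19.3 and 44.9 FPKM in the same order. It was the only relative called for knockdown, lower both in DMSO (q-value 0.0279) and in DAC (q-value 0.00732). Of all genes tested, 0.466% and 0.469% were called lower there. Adjusted within each comparison, neither call would pass, since members with lower deposited q-values did not. These were MX2 in DMSO, at 0.226, and MX1 in DAC, at 0.144. CMPK1, the cytosolic counterpart of CMPK2, had 86.5, 34.5, 98.1 and 54.6 FPKM, and was called lower with DAC in siLuc, where CMPK2 had a log2 ratio of 1.34 without a call. With DMSO, DTX3, a relative of DTX3L, was listed at 0 under either siRNA, and with DAC it reached 1.68 FPKM in siLuc and 1.03 in siStau1 cells. With DAC in siStau1 5 of the 24 relatives tested were called higher (GBP2, PARP12, ZC3HAV1, DTX3 and BIRC3) and 0 lower. Of all genes tested there, 4.56% were called higher and 2.89% lower.

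Among 12600 other protein-coding genes with at least 1 FPKM in a group, the 5 whose pattern over the 4 groups lay nearest to the median pattern of the 10 were EIF4EBP3, EVC, KIF17, VILL and ISG15. Likeness was the distance between log2 levels centred on their mean over the 4 groups, from 0.31 for EIF4EBP3 to 0.41 for ISG15. EIF4EBP3, EVC, KIF17 and VILL were low, with at most 2.87 FPKM in any group. EIF4EBP3 and EVC reached 1 FPKM in siLuc DAC alone, and both were at or near 0 in siStau1 DMSO, so that the pseudocount set their likeness. ISG15, a ubiquitin-like protein that interferon induces, had 1360 FPKM with DMSO and 4708 with DAC in siLuc cells, and 320 and 2065 in siStau1 cells. The 10 genes were not alike by this measure: CMPK2 lay nearest to their median pattern, at 0.24, and MX1 farthest, at 3.94.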

How the data were processed

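Total RNA of 8 libraries in 4 groups is described here. Per the file headers, the deposited table has Cuffdiff's layout. For each of 6 comparisons, of which 5 are used, the authors give the FPKM of both groups (2 libraries each, 1 value), a log2 ratio, a test statistic (here a score), a p-value and a q-value. The submitters' processing notes name hg38, HISAT2 2.1.0, Cuffdiff 2.2.1, Cuffnorm 2.2.1, DESeq 1.36.0, featureCounts and bcl2fastq 2.20, without saying which was used for which file. The deposited q-value was recomputed as the Benjamini-Hochberg value over 102180 tests of all comparisons. The test scores and the 3 tables of J2-bound repeat elements, which give no positions, were not used. The design's tests per library and the protein alignment could not be run: values per library and protein sequences were not analysed here.

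Log2 ratios (0.1 was added to each FPKM), GC bins (20, over protein-coding genes of at least 1 FPKM in both groups, from the longest GENCODE 29 transcript) and promoter searches were computed with Python 3.11.15, pandas 2.3.3, numpy 2.4.6, scipy 1.17.1 and Biopython 1.88. The log2 ratio, GC centring and Benjamini-Hochberg steps were tested on simulated data; the promoter search was not. The depth is unknown. All 58699 gene identifiers matched GENCODE 29. The members and lists were chosen with earlier results of these data known. All 10 members are named throughout. Of the signalling genes, relatives and neighbours within 100 kb those called in any comparison could be named, with others as counts (1 signalling gene is not reported here by name), and so could the 5 protein-coding genes of nearest pattern. Alternatives were other pseudocounts, q-value limits, adjustments, scalings and GC centring.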

Additional observations from a re-analysis of the deposited data

Results flagged for a closer look

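SAMD9 moved in opposite directions under the same contrast. Its log2 ratio with DAC was −1.43 in siLuc and 0.30 in siStau1. The difference was −1.73 as siLuc minus siStau1, or 1.73 as siStau1 minus siLuc. Equally, its log2 ratio with knockdown was −0.34 in DMSO and 1.39 in DAC, a difference of −1.73 as DMSO minus DAC. PARP9 did likewise, at −0.78 and 0.25 for DAC and at −0.64 and 0.38 for knockdown. Its difference was −1.03 both as siLuc minus siStau1 and as DMSO minus DAC, or 1.03 as siStau1 minus siLuc. These differences were not tested. Of the values only −1.43 and 1.39 were called in the authors' deposited table, and the call of 1.39 did not pass when adjusted within its comparison (0.0909). Relative to genes of like GC content, these values of SAMD9 were −0.48 and 0.77. Its value was then 1.02 for DAC in siStau1 and −0.76 for knockdown in DMSO.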

How the results depend on the processing

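Over the 5 comparisons, the counts of called members, the medians of the 10 genes, the difference between the arms and the main promoter count of 5 gave 47 values under other settings, of which 41 lay within 1.5 times the reported value, 6 moved further and 0 changed sign. Among the values within 1.5 times, the number called for DAC in siStau1 went from 6 to 4 with a q-value limit of 0.01, without SAMD9L and DTX3L. With the same limit the number for siStau1 DAC against siLuc DMSO went from 3 to 2, without XAF1. The number called for knockdown in DMSO went from 4 to 2 with a q-value limit of 0.01 and to 1 when adjusted within the comparison. That for knockdown in DAC went from 2 to 0 when adjusted within the comparison, where Cuffdiff's unadjusted p was under 0.05 for 3 lower and 1 higher member. The median for knockdown in DMSO went from −1.88 to −1.03 with a pseudocount of 1 and to −0.82 over the 7 members with at least 1 FPKM in both groups. The median difference between the arms went from 1.53 to 0.98 with a pseudocount of 1. Of 250 values of single members under other settings, 218 lay within 1.5 times and 0 called values changed sign. Among uncalled values, BST2 for DAC in siLuc, DTX3L for knockdown in DAC and SAMD9 for siStau1 DAC against siLuc DMSO changed sign in at least 1 setting. No paired analysis was possible because the table gives 1 value per group, and leaving out single replicates was not possible for the same reason. Depth is unknown, so no detection limit can be set for SAMD9L or XAF1 in siStau1 DMSO.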
